A study of Rattus norvegicus with 24 samples.

Results

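The cytosolic ribosome is built from a small subunit, which reads the messenger RNA, and a large subunit, which joins amino acids into protein. Each subunit holds ribosomal RNA and a fixed set of ribosomal proteins, named Rps in the small and Rpl in the large subunit, and the liver needs many ribosomes to make the proteins of blood plasma. The messages of these proteins are short, abundant and known to be controlled as a group, largely at translation, through a run of pyrimidines at their first bases.

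Members were all genes on the array whose name began with Rpl, Rps or Rplp and a number, together with Rpsa, without the Rps6k kinases. They were 98 of 25885 gene names, measured by 168 of 30367 probes, and each gene was represented by its brightest probe. Of the 98 genes, 59 belonged to the large and 38 to the small subunit. The remaining gene, Rps19bp1, encodes a protein that binds a ribosomal protein and entered through its name. The standard proteins of the ribosome accounted for 77 genes, 46 large and 31 small, and 20 genes were paralogs or copies, named with endings such as l, l1 or y2. At their brightest probes, 94 of the 98 genes were above background on all 24 arrays, beside 14045 of all 30367 probes. The exceptions were Rpl31l1 (9 arrays), Rps19bp1 (7), Rpl39l (3) and Rpl3l (0).

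The RNA came from the liver of male Wistar rats fed 1% cholesterol for 42 days. The Ch group received this diet alone, the ChGENE group received it with 5% lyophilized Geneva kiwifruit, and the ChHAYW group with 5% lyophilized Hayward kiwifruit, so every rat had cholesterol and no group went without it. Each diet had 8 rats, and each rat had its own array. Each slide carried the arrays of a single diet, so an effect of the slide and one of the diet cannot be told apart in any comparison here. Levels are log2 intensities minus the 75th percentile of the same array, so that a value of 6 lies 6 doublings above that percentile. The intensity at that percentile was lower on the Ch arrays, where it ranged from 188 to 653, than on the ChGENE arrays (388 to 775) or the ChHAYW arrays (409 to 1049). Ch rats 4 and 7 had the lowest such intensities, 188 and 335, with Ch rat 6 close to the second at 342. On the log2 scale their spike-in control spots stood 5.55 and 4.86 above the percentile, against 3.09 to 4.28 on the other 22 arrays. Results that rest on these arrays are also given without both, a choice made after the data were seen. As bulk liver was measured, fewer cells of a type and less RNA per cell cannot be told apart.

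The start sites are shown because they hold the sequence by which these messages are known as a group. The feature searched was a C at the first transcribed base that opened an unbroken run of at least 5 C or T, on the strand of the gene and at the start given by RefSeq (GRCr8). It was found in 24 of the 78 member genes with an entry (30.8%) and in 2.63% of all 33469 start sites. With the run allowed to open within 3 bases of the start, the shares were 47.4% and 11.2%. The windows hold 15 bases before the start and 15 from it, with the run in capitals. The first 4 are standard members, and the last 2, paralogs of the third and the fourth, hold no such run at the start.

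Rplp0, chr12:46718376-46718405, minus strand: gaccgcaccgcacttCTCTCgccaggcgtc
Rpl10, chrX:157205835-157205864, plus strand: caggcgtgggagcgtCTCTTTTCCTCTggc
Rpl22, chr5:168117946-168117975, plus strand: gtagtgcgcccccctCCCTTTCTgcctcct
Rps27, chr2:177964592-177964621, minus strand: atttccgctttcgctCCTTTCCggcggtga
Rpl22l1, chr2:113683181-113683210, plus strand: gctccgtggatatccggttccgagttgcgc
Rps27l, chr8:76443643-76443672, plus strand: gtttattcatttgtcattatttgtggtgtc

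The 24 standard members with the run had a median log2 difference of -0.30 between ChGENE and Ch, beside -0.28 for the 38 standard members without it. Between ChHAYW and Ch the medians were -0.18 and -0.23. Translation, at which the run is known to act, was not measured.

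As a group, the ribosomal protein messages had lower levels in ChGENE than in Ch on the 75th percentile scale, though not with quantile normalization or spike-in scaling, and the subunits differed by about the same amount. The mean level of the 46 standard large subunit genes in a rat was 6.50, 6.65 and 6.80 in Ch (lowest, median and highest of the 8 rats), and 6.19, 6.34 and 6.60 in ChGENE. For the 31 standard small subunit genes the values were 6.34, 6.49 and 6.59 in Ch and 6.04, 6.20 and 6.41 in ChGENE. In either subunit, 7 of the 8 ChGENE rats lay below every Ch rat, and the eighth lay within the Ch range. The mean over all 77 genes was 6.57 ± 0.12 in Ch and 6.29 ± 0.14 in ChGENE (SD, n = 8), a difference of -0.28 with an SE of 0.06. It was -0.25 with an SE of 0.07 without Ch rats 4 and 7. In ChHAYW the mean was 6.40 ± 0.17 (SD, n = 8), with rats from 6.14 to 6.61 against 6.44 to 6.71 in Ch. The ChHAYW rats overlapped both other diets.

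**Figure D1:**
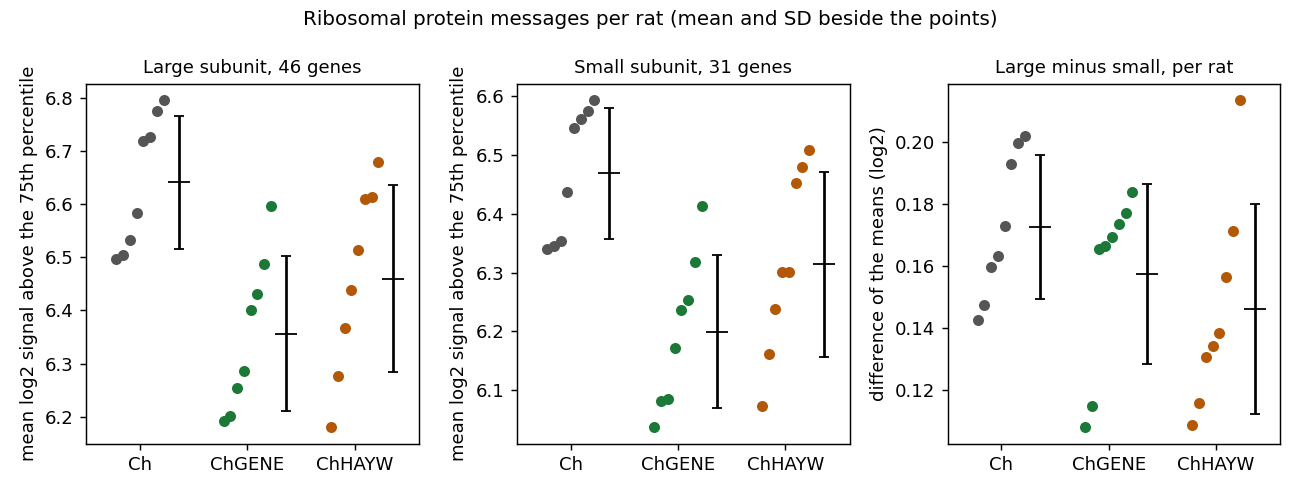
Mean log2 level of the 46 standard large subunit genes, the 31 standard small subunit genes and their difference in each rat, with points in rising order and the mean and SD of each diet beside them. On this 75th percentile scale, though not with spike-in scaling, the ChGENE rats sit lowest on average in both subunits (6.36 and 6.20) and the Ch rats highest (6.64 and 6.47), while the difference between subunits stays between 0.11 and 0.21 in all 24 rats.

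The direction depended on the scaling of the arrays. The median log2 difference of the 98 genes between ChGENE and Ch was -0.27 after scaling to the 75th percentile, where the median of all probes was -0.16. It was -0.30 with scaling to the array median, -0.18 with normexp background correction, -0.0015 with quantile normalization and 0.19 with scaling to the spike-in control spots. Set against the median of all probes under the same scaling, the members stood at -0.11 with percentile, median and spike-in scaling, at 0.01 with quantile normalization and at 0.15 with normexp. For ChHAYW against Ch the member median was -0.18 with the percentile, -0.08 with normexp, 0.05 with quantile normalization and 0.47 with spike-in scaling. Relative to all probes it stood at -0.002, 0.30, 0.06 and -0.002, respectively. Without Ch rats 4 and 7, whose spike-in spots stood apart, the member median with spike-in scaling was -0.08 in ChGENE and 0.22 in ChHAYW. On the percentile scale it was -0.24 and -0.13, where all probes had -0.10 and -0.09.

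**Figure D2:**
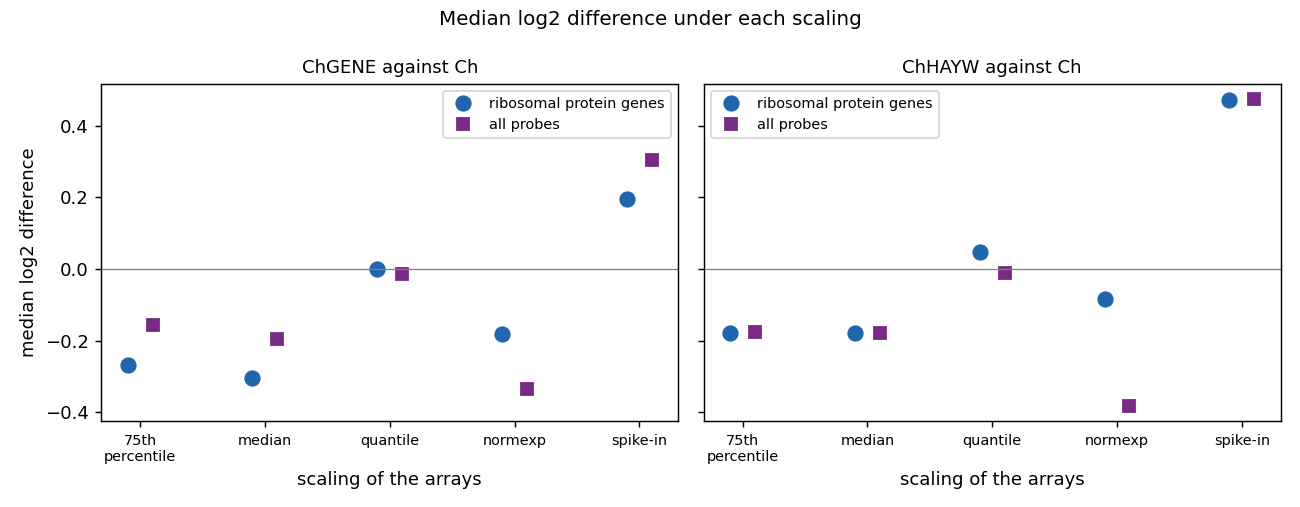
Median log2 difference of the 98 ribosomal protein genes and of all 30367 probes under 5 ways of scaling the arrays, for ChGENE against Ch and ChHAYW against Ch. The member median runs from -0.30 to 0.19 in the first comparison and from -0.18 to 0.47 in the second, and the median of all probes moves with the scaling too.

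In the comparison of ChGENE with Ch, 0 of the 98 genes passed limma's test, which asked for an adjusted p (Benjamini-Hochberg) below 0.05 together with a change of 1.3-fold or more, beside 0.319% of all probes and 0.392% of those above background on all arrays. The smallest adjusted p was 0.0608, shared by several genes, among them Rpl14, Rpl21, Rpl24, Rpl37a, Rpl41 and Rps23. At an unadjusted p under 0.05, 51 of the 98 genes were lower in ChGENE (52.0%, against 22.9% of all probes and 11.5% of those above background on all arrays) and 0 were higher, against 4.07% of all probes. The log2 difference was below 0 for 92 genes, 93.9% against 66.1% of all probes and 57.2% of those above background on all arrays. Most of these other probes were dimmer than the members, and the shares were not compared at a like signal. At levels of 5 to 6, 6 to 7 and 7 to 8, other probes above background on all arrays had median differences of -0.21, -0.29 and -0.33. The members had -0.23, -0.26 and -0.36 there. The 2 genes whose diets did not overlap, Rpl21 and Rps6, were both lower in ChGENE on the percentile scale, 2.04% of the members beside 0.642% of all probes. A single array decided the count of calls, since 12 genes passed without ChGENE rat 2 and 11 without Ch rat 3, all of them lower. Over all 30367 probes the calls rose too, from 76 lower and 21 higher to 2901 and 236 without ChGENE rat 2. Without Ch rat 3 they were 4594 lower and 363 higher. Without both Ch rats 4 and 7, 0 genes passed, with 39 lower and 1 higher at an unadjusted p under 0.05. The methods' t-test called 6 genes, all lower in ChGENE, beside 206 lower and 39 higher of all 30367 probes.

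The log2 differences of single genes between ChGENE and Ch ran from -0.53 to 0.19 among the 94 genes above background on all arrays. The median of the large subunit genes was -0.28 and that of the small subunit genes -0.26, so that the subunits differed by -0.01. Within each rat, the large subunit mean exceeded the small subunit mean by 0.17 ± 0.02 in Ch, 0.16 ± 0.03 in ChGENE and 0.15 ± 0.03 in ChHAYW (SD, n = 8). The size of this gap compares different probes and has no meaning of its own, but it is free of the scaling by percentile, median or spike-ins. It changed by -0.015 with an SE of 0.013 in ChGENE and by -0.026 with an SE of 0.015 in ChHAYW against Ch. In both comparisons the rats of the diets overlapped.

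**Figure D3:**
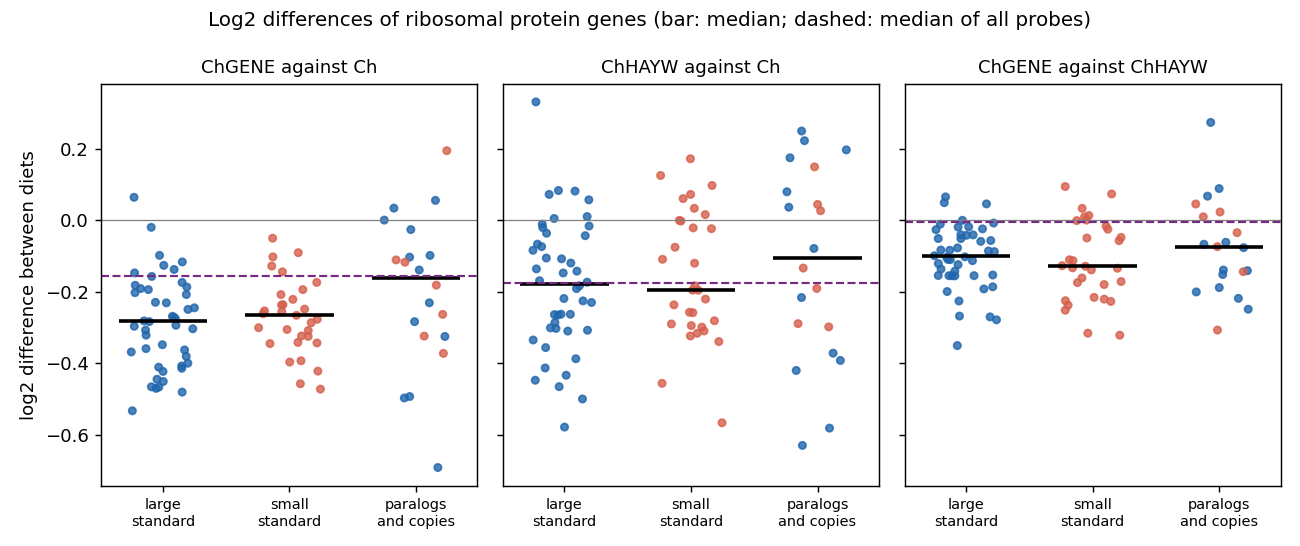
Log2 difference of each gene in the 3 comparisons, with large subunit genes in blue and small subunit genes in red, the median of each set as a bar and the median of all probes as a dashed line. In ChGENE against Ch the standard large and small subunit medians (-0.28 and -0.27) lie below the dashed line at -0.16, whereas in ChHAYW against Ch (-0.18 and -0.20) they lie near it.

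The size of the difference went with the signal of the probe. Over the 94 genes above background on all arrays, the log2 difference between ChGENE and Ch and the mean signal had a Pearson r of -0.63 across genes, which share arrays and are not independent. Over the 13883 other probes above background on all arrays, most of them dimmer, r was -0.19. In ChHAYW against Ch the values were -0.48 and -0.09. With Ch rats 4 and 7 left out they were -0.38 and -0.27 in ChGENE, and -0.40 and -0.22 in ChHAYW.

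At a like signal the comparisons with Ch differed in how the members stood to other probes. In ChGENE against Ch, the median log2 difference at a mean level of 4 to 5 was -0.12 for 6 members and -0.10 for 677 other probes above background on all arrays. At 5 to 6 it was -0.23 for 20 members and -0.21 for 459 others, at 6 to 7 -0.26 for 34 members and -0.29 for 302 others, and at 7 to 8 -0.36 for 23 members and -0.33 for 139 others. In these steps the members and the other probes had about the same median. In ChHAYW against Ch the members lay above the other probes over levels from 3 to 6, with 0.03 against -0.05 at 3 to 4, 0.14 against -0.07 at 4 to 5 and -0.02 against -0.15 at 5 to 6. The brighter steps had -0.15 against -0.20 at 6 to 7 and -0.27 against -0.24 at 7 to 8. Without Ch rats 4 and 7 the ChHAYW values at 3 to 4, 4 to 5 and 5 to 6 were -0.07 against -0.07, 0.05 against -0.08 and -0.10 against -0.14. In ChGENE against ChHAYW the members lay below the other probes in each of these steps, by the most at 4 to 5, where the medians were -0.22 and 0.00002. These values are a description with no test.

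**Figure D4:**
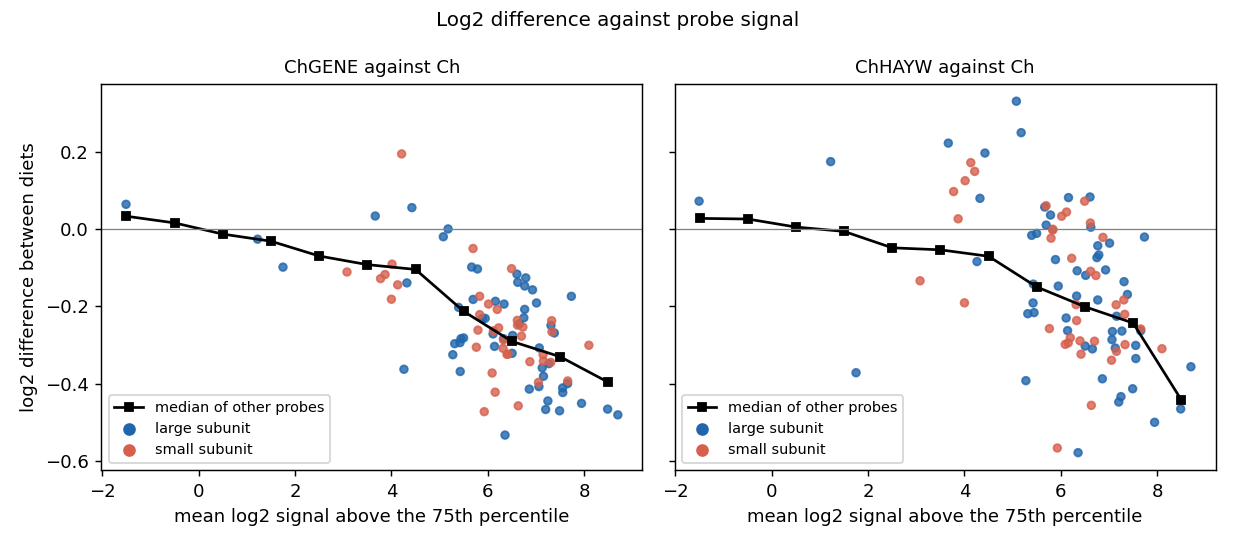
Log2 difference against mean log2 level for the 94 ribosomal protein genes above background on all arrays (points, by subunit) and the median of the other such probes in steps of 1 on the log2 scale (black squares). The line of the other probes falls to -0.40 and -0.44 at the brightest step. The members lie along it in ChGENE against Ch, and in ChHAYW against Ch they lie above it on average over levels 3 to 6 (for example -0.02 against -0.15 at 5 to 6).

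Among the small subunit genes, Rpsa, which encodes a ribosomal protein also known as the laminin receptor, had levels of 5.80, 6.08 and 7.28 in Ch (lowest, median and highest), 5.45, 5.77 and 6.35 in ChGENE and 5.16, 5.84 and 5.99 in ChHAYW. The log2 difference from Ch was -0.47 in ChGENE (SE 0.20, adjusted p = 0.146) and -0.57 in ChHAYW (SE 0.21, adjusted p = 0.115) by limma. Ch rats 4 and 7, the dimmest arrays, had the highest values (7.28 and 6.73), and the diets overlapped. Without them the differences of Rpsa were -0.23 (adjusted p = 0.383) and -0.32 (adjusted p = 0.349). The other Rpsa probe, dimmer but above background on all arrays, gave -0.26 and -0.09 with all Ch rats included. Rps6, the target of the S6 kinases, had levels of 6.23, 6.27 and 6.59 in Ch, 5.81, 6.13 and 6.21 in ChGENE and 6.03, 6.25 and 6.47 in ChHAYW. Every ChGENE rat lay below every Ch rat, yet the log2 difference was only -0.26 (SE 0.11, adjusted p = 0.131). Rps3, which lines the entry of the messenger RNA channel, differed from Ch by -0.31 in ChGENE (adjusted p = 0.0742) and by -0.20 in ChHAYW (adjusted p = 0.272). The other Rps3 probe, dimmer but above background on all arrays, gave -0.02 (adjusted p = 0.940) and 0.17 (adjusted p = 0.416). Rps27a, made as a fusion with ubiquitin, gave -0.32 in both comparisons (adjusted p = 0.156 and 0.192), and -0.17 in both without Ch rats 4 and 7.

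The stalk of the large subunit, where elongation factors bind, is formed by Rplp0, Rplp1 and Rplp2, and all 3 had log2 differences below the member median in both kiwifruit diets. Rplp0 had levels of 8.45, 8.63 and 9.52 in Ch, 8.16, 8.30 and 8.77 in ChGENE and 7.89, 8.30 and 8.90 in ChHAYW. Its log2 difference was -0.47 in ChGENE (SE 0.16, adjusted p = 0.0751) and -0.47 in ChHAYW (SE 0.18, adjusted p = 0.124), and the diets overlapped. Rplp1 gave -0.41 and -0.39, and Rplp2 gave -0.45 and -0.50, with adjusted p-values between 0.0983 and 0.136. Other probes above background on all arrays had medians of -0.40 and -0.44 at levels of 8 to 9, where Rplp0 lay. They had -0.33 and -0.24 at 7 to 8 (Rplp2) and -0.29 and -0.20 at 6 to 7 (Rplp1). The stalk values were smaller without Ch rats 4 and 7, at -0.30 for Rplp0 in either diet, -0.26 and -0.23 for Rplp1, and -0.26 and -0.30 for Rplp2, with adjusted p-values from 0.186 to 0.426. The other probes then had -0.30 and -0.28 at 8 to 9, -0.28 and -0.20 at 7 to 8 and -0.26 and -0.17 at 6 to 7. Rplp0 is often used as a reference gene, and here its level on the percentile scale moved with that of the other members.

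Other large subunit genes spanned the range. Rpl36 had the lowest log2 difference of these 94 genes between ChGENE and Ch, at -0.53 (SE 0.22, adjusted p = 0.124), with levels of 6.20, 6.53 and 7.76 in Ch and 5.67, 6.21 and 6.80 in ChGENE. Rpl41, which encodes the smallest ribosomal protein, followed with -0.48 (SE 0.14, adjusted p = 0.0608) and levels of 8.64, 8.91 and 9.36 against 8.17, 8.50 and 8.94. Both pairs of diets overlapped. The 7.76 of Rpl36 was that of Ch rat 4, with 7.27 in Ch rat 7, and without both the difference was -0.27 (adjusted p = 0.334), beside -0.37 for Rpl41 (adjusted p = 0.158). Rpl21, named here after its values were seen, had levels of 7.64 to 8.01 in Ch and 7.12 to 7.64 in ChGENE, where the ranges meet without overlapping, and a log2 difference of -0.41 (SE 0.11, adjusted p = 0.0608). Rpl24 gave -0.47 and Rpl14 -0.44, both with an adjusted p of 0.0608. With all Ch rats included, smaller differences were found for 3 genes of known role. Rpl11, which together with Rpl5 binds the p53 regulator Mdm2 when it is free of the ribosome, gave -0.13 (adjusted p = 0.478). Rpl3, a core protein of the peptidyl transferase region, gave -0.19 (adjusted p = 0.429) and Rpl10, which joins late in assembly, -0.17 (adjusted p = 0.410). Without Ch rats 4 and 7 these were -0.18, -0.29 and -0.27 (adjusted p = 0.314, 0.247 and 0.189). Rpl3 and Rpl10 then lay near Rpl36. Rpl15 gave 0.06 (adjusted p = 0.805), at a probe with levels of only -1.87 to -0.99 in the rats of both diets.

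**Figure D5:**
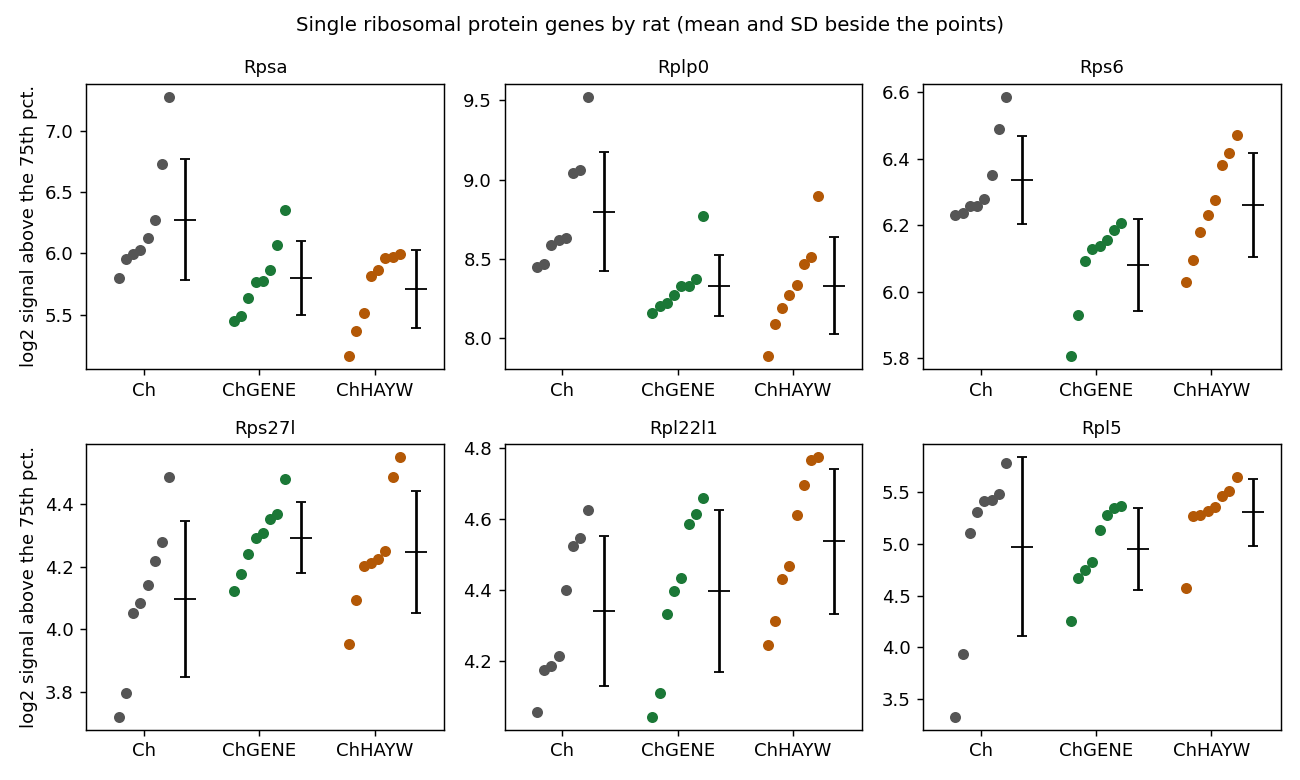
Log2 level in each rat of 6 ribosomal protein genes by diet, with the mean and SD of each diet beside the points. Rps6 has no overlap between ChGENE (5.81 to 6.21) and Ch (6.23 to 6.59), Rpsa and Rplp0 spread upward in Ch, and Rpl5 has 2 low rats in Ch (3.33 and 3.94), numbers 4 and 7, whose arrays were the dimmest of the diet and which are the highest in Ch for Rpsa.

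In the comparison of ChHAYW with Ch, 0 of the 98 genes passed, as did 0 of all 30367 probes by limma, that is 0%, and the methods' t-test called 0 members too. At an unadjusted p under 0.05, 27 members were lower in ChHAYW (27.6%, against 21.3% of all probes and 10.7% of those above background on all arrays) and 0 higher, against 3.75% of all probes. The log2 difference was below 0 for 74 members (75.5%, against 66.6% and 55.7%). Here too most of the other probes were dimmer than the members. The smallest adjusted p was 0.110, for Rpl14 among others. Among genes above background on all arrays, the lowest log2 differences were those of Rpl36 (-0.58), Rpsa (-0.57), Rplp2 (-0.50) and Rplp0 (-0.47). The highest were those of Rpl5 (0.33), Rpl5l1 (0.25), Rpl22l2 (0.22) and Rpl22l1 (0.20), with adjusted p-values between 0.249 and 0.552. Without Ch rats 4 and 7 these 4 values were -0.12, -0.13, 0.27 and 0.25, so that Rpl5 and Rpl5l1 turned below 0, and Rpl36 became -0.32. The members lower at an unadjusted p under 0.05 then numbered 7 in place of 27, with 1 higher. Without ChHAYW rat 3, 6 genes passed, all lower in ChHAYW, beside 4312 lower and 276 higher of all 30367 probes. Both comparisons with Ch used the same 8 Ch rats.

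Between the kiwifruit diets, 0 of the 98 genes passed, beside 0.00659% of all probes and 0.00712% of those above background on all arrays, and the methods' t-test called 0. At an unadjusted p under 0.05, 6 members were lower in ChGENE (6.12%, against 4.33% of all probes and 6.37% of those above background on all arrays) and 0 higher, against 3.98% of all probes. The log2 difference was below 0 for 82 members (83.7%, against 50.9% and 51.3%), with a median of -0.11 beside -0.005 over all probes. Among the lowest values were those of Rpl5 (-0.35), Rps18 (-0.32) and Rps4x (-0.32), and the highest was that of Rpl10l (0.27), with adjusted p-values between 0.501 and 0.885. Rps18, a protein of the head of the small subunit, had levels of 6.55, 7.03 and 7.37 in Ch, 6.26, 6.65 and 7.07 in ChGENE and 6.55, 6.95 and 7.25 in ChHAYW. Its ChHAYW rats lay with the Ch rats, while the ChGENE rats reached lower and overlapped both. The lowest Ch values, 6.55 and 6.73, were those of Ch rats 4 and 7, and the other Ch rats ran from 6.98 to 7.37. By limma, Rps18 differed from Ch by -0.34 in ChGENE (adjusted p = 0.122) and by -0.02 in ChHAYW (adjusted p = 0.929). Without Ch rats 4 and 7 these were -0.46 (adjusted p = 0.117) and -0.14 (adjusted p = 0.634).

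Paralogs can replace a standard protein in some tissues or be expressed beside it. The 17 paralogs or copies above background on all arrays had a median log2 difference of -0.12 in ChGENE against Ch and 0.03 in ChHAYW against Ch, beside -0.28 and -0.18 for the 77 standard genes. Rps27l, a paralog of Rps27 that p53 is known to induce, had the highest log2 difference between ChGENE and Ch among genes above background on all arrays, at 0.19 (SE 0.12, adjusted p = 0.329). Its levels were 3.72, 4.11 and 4.49 in Ch, 4.12, 4.30 and 4.48 in ChGENE and 3.95, 4.22 and 4.55 in ChHAYW, which overlap. Rps27 itself gave -0.25 (adjusted p = 0.198). Within a rat, the log2 ratio of Rps27l to Rps27, which the scaling to a percentile, median or spike-in cannot move, was higher in ChGENE than in Ch by 0.45 with an SE of 0.17, and in 57 of the 64 pairs formed of a ChGENE and a Ch rat. In ChHAYW it was higher by 0.27 (SE 0.15), in 44 of 64 pairs. Without Ch rats 4 and 7, where Rps27 was highest, the changes were 0.30 (SE 0.15) and 0.12 (SE 0.14).

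The ratio of Rpl22l1 to Rpl22 was higher than in Ch by 0.36 (SE 0.09) in ChGENE and by 0.46 (SE 0.11) in ChHAYW, in 60 of 64 pairs of rats each time, and the diets overlapped. These changes were 0.36 and 0.46 without Ch rats 4 and 7. Rpl22l1, at 4.06, 4.31 and 4.63 in Ch and 4.24, 4.54 and 4.77 in ChHAYW, differed by 0.20 (adjusted p = 0.326), and Rpl22 by -0.26 (adjusted p = 0.178). As the probes of Rps27l and Rpl22l1 are dimmer than those of their partners and the log2 difference goes with signal, this dependence moves with both ratios, and its part in them was not tested. The ratio of Rpl22l1 to Rpl22 rests on 1 probe of each gene. The other Rpl22l1 probe, at a mean level of -0.77, gave -0.25 in ChGENE and -0.01 in ChHAYW against Ch, where the brightest gave 0.06 and 0.20. The other Rpl22 probe gave -0.16 and -0.08, where the brightest gave -0.30 and -0.26. At these other probes Rpl22l1 lay below Rpl22 in ChGENE and little above it in ChHAYW. For the other pairs named, the ratio of Rpl7l1 to Rpl7 changed by 0.25 (SE 0.17) in ChGENE and 0.29 (SE 0.18) in ChHAYW, and that of Rpl10l to Rpl10 by 0.08 (SE 0.42) and -0.35 (SE 0.45). Rpl36al to Rpl36a changed by -0.03 (SE 0.11) in ChGENE and by -0.20 (SE 0.11) in ChHAYW, where it was higher in 17 of 64 pairs. Rps4y2 to Rps4x changed by -0.04 (SE 0.18) and by -0.36 (SE 0.18), the latter higher in 12 of 64 pairs. Without Ch rats 4 and 7 the ChHAYW changes of these 4 pairs were 0.09, -0.33, -0.08 and -0.16. Rpl3l, known as the form of striated muscle, was not well above background on any array, and Rpl39l was so on 3 of 24, so no fold is given for them.

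Some probes may report on more than 1 message. In all, 21 of the 98 brightest probes shared at least 30 bases in a row with a probe of another gene name that is not a member. The probes of Rps3, Rps6, Rplp1, Rplp2 and Rpl37a were among them.

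Rpl5, which carries the 5S ribosomal RNA into the large subunit, and its predicted copy Rpl5l1 were among the members with the widest spread, with an SD within diets of 0.58 and 0.48 on the log2 scale. Their probes, written 5′ to 3′ with positions on rn4, are shown because they differ in sequence, yet the annotation of the array lists the Rpl5l1 transcript for both.

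Rpl5, chr14:2401385-2401444, minus strand: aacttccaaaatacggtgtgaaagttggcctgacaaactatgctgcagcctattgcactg
Rpl5l1, chr9:113233650-113233709, minus strand: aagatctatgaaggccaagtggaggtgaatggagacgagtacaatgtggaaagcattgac

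Rpl5 had levels of 3.33, 5.36 and 5.78 in Ch, 4.26, 4.98 and 5.37 in ChGENE and 4.57, 5.34 and 5.65 in ChHAYW. Rpl5l1 had 3.71, 5.41 and 5.78 in Ch, 4.52, 5.13 and 5.44 in ChGENE and 4.73, 5.40 and 5.57 in ChHAYW. Ch rats 4 and 7, whose arrays were the dimmest, were the lowest at both probes. The log2 difference of Rpl5 from Ch was -0.02 (SE 0.31) in ChGENE and 0.33 (SE 0.31) in ChHAYW, both smaller than the SD of 0.86 among Ch rats. With these rats left out the SD was 0.22, and the differences were -0.47 (SE 0.18, adjusted p = 0.158) and -0.12 (SE 0.16, adjusted p = 0.785). Rpl5l1 then gave -0.38 and -0.13. The part of array signal in these values was not tested. At the other end, Rpl30, Rpl30l1 and Rpl39 had the smallest SDs within diets, 0.13, 0.14 and 0.14. Rpl39, a small protein at the exit of the peptide tunnel, had levels of 5.44, 5.58 and 5.83 in Ch, 5.10, 5.32 and 5.50 in ChGENE and 5.39, 5.57 and 5.87 in ChHAYW, and differed from Ch by -0.28 (adjusted p = 0.0938) in ChGENE and by -0.01 (adjusted p = 0.952) in ChHAYW.

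The members varied together from rat to rat. The median SD of the standard members within diets was 0.21 on the log2 scale, and 0.14 after the mean of the standard members of each array had been subtracted. For all 14045 probes above background on all arrays the same step left the spread at 0.34, from 0.32. The mean subtracted came from the members themselves, and most of the other probes were dimmer. The contrast therefore cannot show that the shared variation is particular to the members. The mean of the members in a rat had an SD within diets of 0.14, and the gap between the subunits one of 0.03. In ChHAYW this mean ran from 6.43 to 6.61 on the arrays of slide row 1 and from 6.14 to 6.38 on those of row 2. The rows overlapped in Ch and in ChGENE. The part of array position was not tested.

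The 50 genes with several probes gave a check on the choice of the brightest. Their probes lay a median of 0.11 apart on the log2 scale in ChGENE against Ch, 0.18 in ChHAYW against Ch and 0.08 in ChGENE against ChHAYW. In ChHAYW against Ch this gap was about as large as the member median of -0.18. Probes of opposite sign were found in 6, 18 and 7 of the 50 genes. In ChGENE against Ch, 2 genes had probes over 0.5 apart, Rps4y2 (-0.18 and 0.68) and Rpl37a (-0.42 to 0.13). In ChHAYW against Ch, 3 genes did, Rps2 (-0.19 to 0.60), Rpl37a (-0.33 to 0.35) and Rpl14 (-0.43 to 0.10). In Rps4y2, Rpl37a, Rps2 and Rpl14 the probe with the highest of these values was the dimmest of the gene.

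In other parts of the machinery of translation, no gene of any list passed the test in either direction in any comparison. The 9 elongation genes had median log2 differences of -0.12 in ChGENE and -0.16 in ChHAYW against Ch, the 27 initiation genes had -0.05 and 0.07, and the 32 assembly genes -0.07 and 0.03. The 11 genes of RNA polymerase I, which makes ribosomal RNA, gave 0.03 and 0.21, and the 16 genes that control ribosomal protein messages, such as Mtor and Larp1, -0.17 and -0.02. The 71 mitochondrial ribosomal proteins, which serve the separate ribosomes of the mitochondrion, gave 0.002 and 0.04. These medians stand beside -0.16 and -0.18 over all probes and -0.05 and -0.04 over probes above background on all arrays.

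Markers of liver cells were measured beside the members. The 7 hepatocyte markers, all above background on every array, had median log2 differences of -0.42 in ChGENE and -0.46 in ChHAYW against Ch, with array means of 7.36 to 7.91 in Ch, 7.08 to 7.70 in ChGENE and 7.09 to 7.85 in ChHAYW. At levels of 7 to 8, where these means lie, the other probes above background on all arrays had medians of -0.33 and -0.24. All marker values include Ch rats 4 and 7. The 5 Kupffer cell markers gave 0.58 and 0.31, with array means of 0.05 to 2.07 in Ch, -0.06 to 3.02 in ChGENE and 0.12 to 2.00 in ChHAYW. The medians of the other lists were 0.56 and 0.48 for T and B cells (1 of 5 markers above background on all arrays), 0.22 and 0.07 for endothelial cells, -0.18 and -0.19 for stellate cells, -0.11 and -0.25 for cholangiocytes, -0.23 and -0.37 for red cell precursors and 0.81 and 0.38 for dividing cells, none of whose 4 markers was above background on all 24 arrays. No marker passed the test, and the part of cell composition in the results for ribosomal proteins was not tested.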

How the data were processed

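Liver RNA of 24 rats was measured on 1-colour Agilent arrays. The authors extracted the spots with Feature Extraction 10.10.1.1, and the deposited values are background-subtracted intensities on a linear scale, not scaled between arrays. Outlier spots were left out and the spots of a probe averaged as log2 values. The 75th percentile of the 30367 non-control probes of an array was then subtracted. Pairs of diets were compared with limma 3.58.1 (lmFit and eBayes, R 4.3.3) on the 16 arrays of a pair, over all probes with no filter, with Benjamini-Hochberg adjustment, and the fits were tested on simulated data. A gene passed with an adjusted p below 0.05 and a change of 1.3-fold or more. The number of rats limits the precision. Array positions are on rn4 per the file headers, and start sites come from RefSeq GRCr8. Genes were named by a fixed rule: the extremes of each comparison and of spread, ribosomal proteins of known role, paralog pairs and genes with disagreeing probes. Of the brightest probes, 81 of 98 matched a RefSeq transcript. The members and the lists, for translation and cell type markers, were chosen with earlier results of these data known. Alternatives were other tests, array weights, scalings, background, filters, probe choice, a replicate block, leaving out each array and leaving out Ch rats 4 and 7 together. Some members and lists that these rules name are not reported here.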

Additional observations from a re-analysis of the deposited data

Results flagged for a closer look

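The levels of the named genes and of the subunits were checked in each diet for a rat far from the other 7, in 126 groups of 8 rats. A group was picked out when the gap between the extreme rat and its nearest neighbour exceeded 0.526 of the range, which chance gives in about 1 group in 20, and 7 groups were. ChHAYW rat 5 was the lowest in 4 of them, with 7.25 for Rpl10 (next 7.68), 5.73 for Rpl3 (next 6.18), 4.57 for Rpl5 (next 5.27) and 4.73 for Rpl5l1 (next 5.28). ChGENE rat 2 was the highest for Rplp0, at 8.77 (next 8.37), ChGENE rat 1 the highest for Rpl7, at 6.87 (next 6.44), and ChGENE rat 7 the lowest for Rps4y2, at 3.50 (next 3.87). Rpl5 and Rpl5l1 share an annotated transcript and are not independent.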

How the results depend on the processing

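For ChGENE against Ch, where limma called 0 members, the calls were 6 with the methods' t-test, 3 with array weights, 12 with all 24 arrays in 1 fit, 16 with median scaling and 5 with normexp, all lower in ChGENE, and 0 to 12 when 1 array was left out (12 without ChGENE rat 2, 11 without Ch rat 3, 0 otherwise). Of the 5 with normexp, Rpl31l1, Rpl39l and Rpl3l were above background on only 9, 3 and 0 arrays, and Rpl31l1 was also among the 11. Calls over all 30367 probes, lower and higher, were 206 and 39 with the methods' t-test and 3145 and 531 with array weights. They were 2565 and 298 with all 24 arrays in 1 fit, 4423 and 200 with median scaling and 9994 and 203 with normexp. For ChHAYW against Ch the member calls were 3 with array weights, 6 with median scaling and 6 with normexp, all lower in ChHAYW, and 0 to 6 when 1 array was left out (6 without ChHAYW rat 3). Of the 6 with normexp, 2 were Rpl31l1 and Rpl3l. Over all probes the calls, lower and higher, were 4992 and 711 with array weights, 3149 and 91 with median scaling and 11340 and 140 with normexp. The cause was not tested. Of the other alternatives fixed for calls, none gave one, and ChGENE against ChHAYW had 0 under each, while calls were not made on the mean over all probes of a gene. Leaving out Ch rats 4 and 7, chosen after seeing the data, gave 0 calls in both comparisons with Ch, and with median scaling 10, all lower in ChGENE, and 0. Beside those 10, 2770 of all 30367 probes were called lower in ChGENE and 157 higher. The member medians were then -0.0067 with quantile normalization and -0.0809 with spike-in scaling in ChGENE, and 0.0424 and 0.2247 in ChHAYW, where the difference of the subunit medians was -0.0236 with quantile normalization. The median of the members became -0.0015 with quantile normalization and 0.19 with spike-in scaling in ChGENE against Ch, 0.047 and 0.47 in ChHAYW against Ch, and -0.30 with spike-in scaling in ChGENE against ChHAYW. When 1 array was left out these medians ran from -0.29 to -0.24, from -0.20 to -0.14 and from -0.15 to -0.07. The difference of the subunit medians was -0.01, 0.01 and 0.02 in the 3 comparisons. With 1 array left out it ran from -0.03 to 0.0037, from -0.025 to 0.0249 and from -0.0019 to 0.0383, and with the mean over all probes of a gene it was -0.0288 in ChGENE against ChHAYW. The replicate block left 0 calls in each comparison, with 27 members lower at an unadjusted p under 0.05 in ChGENE against Ch in place of 51. Rats of the same number did not deviate together (correlations of -0.35 to 0.23), and the labels name no pairing.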
